A study of Mus musculus with 36 samples.

Results

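The genes of the respiratory chain and the ATP synthase were followed in mouse pancreatic fibroblasts grown alone or with pancreatic tumour cells. They were chosen by symbol: names starting with Nduf, Uqcr, Atp5, Cox4, Cox5, Cox6, Cox7 or Cox8, the 4 Sdh genes, and the mitochondrially encoded mt-Nd, mt-Co, mt-Cyt and mt-Atp genes. Of 39017 genes in the count table, 107 symbols matched, 1 pseudogene symbol was dropped, and 7 more were dropped for a mean below 10 counts over the 36 libraries. The 99 genes that remained, 87 encoded in the nucleus and 12 in mitochondrial DNA, all passed the low-count filter and were among the 14439 genes tested. Just outside the minimum were mt-Nd3 (mean 6.22 counts) and Cox7a1 (7.17), and just inside it were Cox6b2 (12.8) and mt-Nd4l (15.4).

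The labels describe C57BL/6 pancreatic fibroblasts, either kept in mono-culture or mixed for 48 h with a GFP-carrying tumour line and then recovered from it by flow sorting on that GFP. There were 9 groups of 4 libraries: the mono-culture, co-cultures with the tumour sub-clones E, H, K, M, N, T and V, and a co-culture with KPC1, a line that the labels do not explain. Nothing states that the 4 libraries of a group came from separate cultures, so p-values measure only the spread between these libraries, which may be technical. The 8 comparisons with mono-culture share the same 4 mono-culture libraries. Whether the mono-culture fibroblasts were also sorted is not given in the sources used here.

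The respiratory chain moves electrons from NADH and succinate to oxygen through complexes I, II, III and IV of the inner mitochondrial membrane. The proton gradient built by complexes I, III and IV drives ATP synthase, or complex V. Most subunits are encoded in the nucleus, translated in the cytosol and imported, while a small set in complexes I, III, IV and V is encoded in mitochondrial DNA, transcribed from both strands as long precursors. Complex II is wholly nuclear. Complex I has a conserved core that carries flavin and iron-sulphur clusters and a shell of accessory subunits that hold the arms together.

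Library totals ranged from 12532122 to 21985538 counts, and no pair of libraries in a group agreed within sampling noise. The 10 fibroblast markers, collagens among them, were abundant, with a summed level of 21240 to 23093 CPM (counts relative to a TMM-scaled library total) in mono-culture and 10902 to 32116 CPM in co-culture. With clones H, T and V and KPC1, 5, 6, 5 and 6 of the 10 fell and 3, 4, 2 and 4 rose (edgeR adjusted p under 0.05). Of all genes 26.4%, 24.7%, 28.9% and 28.5% fell there and 27.8%, 25%, 29.4% and 30.5% rose. With clones E, K, M and N 0 fell and 3, 2, 2 and 4 rose. Of all genes 15.5%, 8.69%, 10.8% and 19.2% fell with these and 16.5%, 10.4%, 12.2% and 19.7% rose. The part of these marker changes in the comparisons below was not tested. Of 9 epithelial markers 6 were tested. Their summed level was 0.989 to 1.71 CPM in mono-culture against 19.8 to 861 CPM in the co-culture libraries. Of the 6 tested, 4 rose with clones K and M and 5 with each other line, and 0 fell (edgeR adjusted p under 0.05). The median log2 fold change of the 6 ran from 6.995 with clone K to 9.625 with clone T. Epcam was at 0 with clones E, H, T and V, and Cldn4 at 0 in 8 of the 9 groups, mono-culture among them. Cldn6 was at 0 in mono-culture alone. Leukocyte markers (2 of 4 tested) summed to 1.35 to 16.1 CPM and endothelial markers (2 of 3 tested) to 0.895 to 5.73 CPM over all libraries. The epithelial sum moved with every comparison against mono-culture below, and its part in them was not tested. In a bulk sample fewer cells of a type and less RNA per cell cannot be told apart.

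Nuclear subunit genes were lower in co-culture far more often than they were higher. Averaged over the 7 clonal co-cultures, 35 of 78 nuclear subunit genes (44.9%) fell and 1 rose, whereas 24.9% of all 14439 genes fell and 24.3% rose (edgeR quasi-likelihood test, Benjamini-Hochberg adjusted p under 0.05). The median log2 fold change of the 78 was -0.19, with 63 below 0, and the median over all genes lay between -0.0090 and 0.0116 in each comparison. With the single lines, 37 of the 78 fell with clone H and 1 rose, against 26.4% and 27.8% of all genes. With clone T 32 fell and 1 rose (24.7% and 25% of all genes). With clone V 32 fell and 6 rose (28.9% and 29.4%), and with KPC1 28 fell and 5 rose (28.5% and 30.5%).

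The other clones called fewer genes in all and fewer members. With clone E 12 nuclear subunit genes fell and 0 rose (15.5% and 16.5% of all genes), and with clone M 11 fell and 0 rose (10.8% and 12.2%). With clone K 6 fell and 0 rose (8.69% and 10.4%). With clone N 11 fell and 3 rose (19.2% and 19.7%), and the median log2 fold change there, -0.06, was the nearest to 0. For clones E, K and N the share of members lower, 15.4%, 7.69% and 14.1%, was at or under that of all genes in this fit. With replicate number added to the model, 21, 21 and 18 of the 78 fell with these clones. The share of all genes was not set beside those counts. The medians for clones H, T, V, M, K and E and for KPC1 were -0.30, -0.23, -0.23, -0.21, -0.20, -0.19 and -0.15. In every line most of the 78 had a log2 fold change below 0, from 47 with clone N to 73 with clone K.

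Counted in either direction over all 99 genes, called members numbered 14 with clone E, 42 with H, 7 with K, 11 with M, 19 with N, 40 with T, 44 with V and 43 with KPC1. Of all genes, 32%, 54.2%, 19.1%, 23%, 39.0%, 49.8%, 58.3% and 59.0% were called in the same order, and 49.2% in the mean of the clones, where 41 members were called. Scaling by library totals alone moved the balance with KPC1 from 11 members higher and 32 lower to 5 and 38, with clone V from 9 and 35 to 5 and 43, and with clone N from 6 and 13 to 4 and 17.

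**Figure D1:**
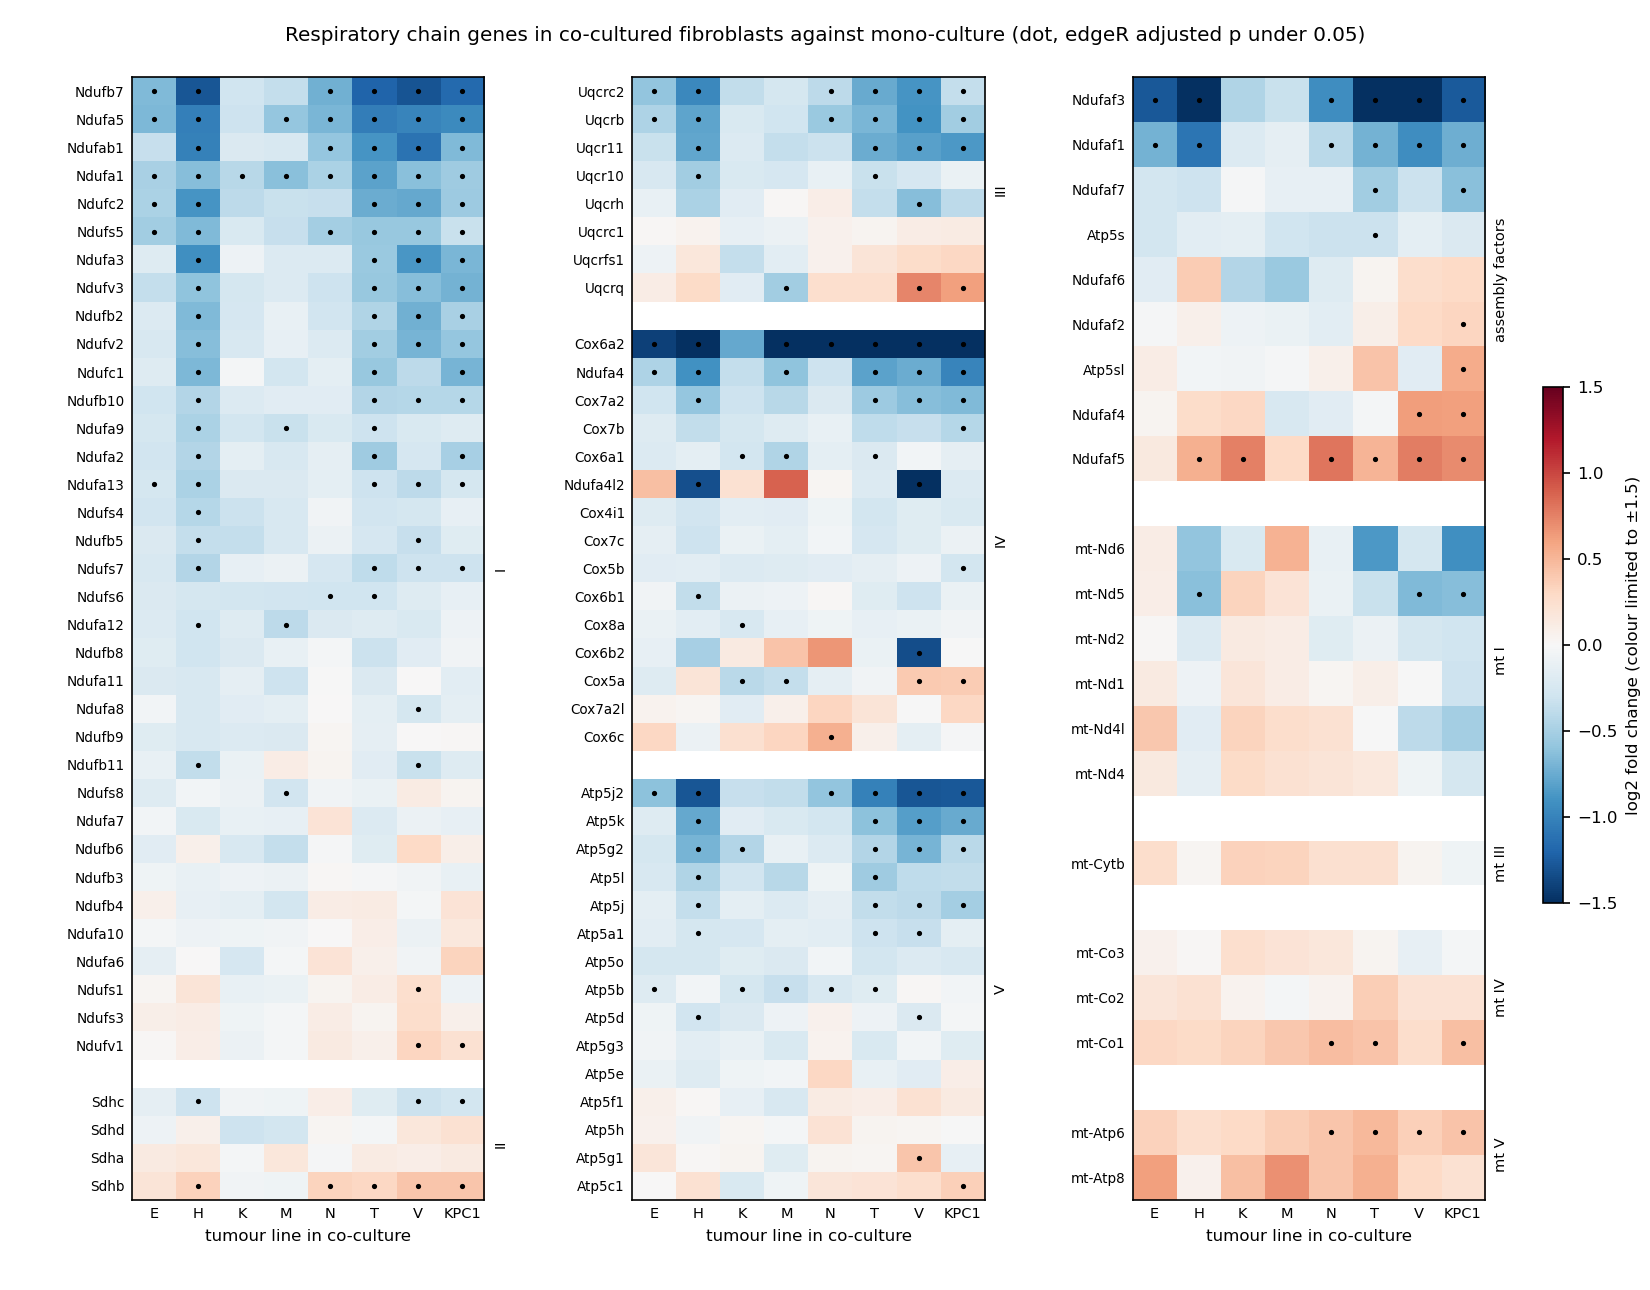
Heat map of the log2 fold change (co-culture over mono-culture) of the members, 1 of them not shown, in rows by complex and genome, for the 8 tumour lines in columns; colours are limited to 1.5 on either side of 0 and a dot marks an edgeR adjusted p under 0.05. Complex I accessory genes are mostly blue with dots under clones H, T and V and KPC1, whereas the mitochondrially encoded rows are mostly pale or red with few dots.

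A count that needs no model ordered the lines differently. All 4 libraries lay below every mono-culture library for 34 of 78 nuclear subunit genes with clone T, 32 with H, 31 with M, 31 with V, 29 with K, 24 with E, 17 with KPC1 and 10 with N. The same held for 24.9% of all genes with clone T, 25.3% with H, 16.9% with M, 26.4% with V, 14.6% with K, 19.1% with E, 26.2% with KPC1 and 20.4% with N. The share of members was 39.7% with clone M and 37.2% with clone K, the lines with the fewest edgeR calls, and 21.8% with KPC1 and 12.8% with clone N. For 6 nuclear subunits (Ndufab1, Ndufb7, Ndufs5, Ndufv3, Uqcrc2 and Atp5j2) all 28 clonal libraries lay below every mono-culture library, which was true of 4.34% of all genes.

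Complex I, the NADH dehydrogenase, held most of the genes that fell. In the mean of the clones 20 of its 36 nuclear genes (55.6%) fell and 0 rose (median log2 fold change -0.26), where 24.9% of all genes fell. The fall lay in the accessory subunits: 18 of 29 fell, and all 29 had a log2 fold change below 0 (median -0.27). Of the 7 core subunits, 2 fell, Ndufv2 (-0.38 on the log2 scale) and Ndufs7 (-0.26), both iron-sulphur proteins, and the core median was 0.06. Accessory genes that fell numbered 18 with clone H (62.1%), 15 with T (51.7%), 14 with V (48.3%), 13 with KPC1 (44.8%), 6 with E (20.7%), 6 with N (20.7%), 4 with M (13.8%) and 1 with K (3.45%). Of all genes, 26.4%, 24.7%, 28.9%, 28.5%, 15.5%, 19.2%, 10.8% and 8.69% fell in the same order. With clones E, N and M the share of accessory genes in this fit was little above that of all genes, and with K it was under it. No member of complex I rose with clones E, H, K, M or T, and those that rose elsewhere were core subunits, among them Ndufv1, the NADH-binding flavoprotein, with clone V (0.32) and KPC1 (0.23), and Ndufs1 with clone V (0.25). The difference between core and accessory genes as sets was not tested.

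Ndufb7 (ENSMUSG00000033938, chr8:83566671-83571626, plus strand), an accessory subunit on the intermembrane face of the membrane arm, fell the most in complex I. Ndufb7 stood at 42.3, 46.6, 44.0 and 43.2 CPM in the 4 mono-culture libraries. Its values were 26.6, 27.4, 25.8 and 31.3 with clone E and 16.4, 15.9, 14.9 and 24.9 with clone H, 33.1, 37.6, 35.95 and 36.2 with clone K and 32.9, 36.3, 30.5 and 38.0 with clone M, and 29.8, 24.6, 24.2 and 27.8 with clone N and 20.8, 17.2, 17.3 and 21.4 with clone T. The others were 17.3, 16.3, 16.5 and 21.5 with clone V and 14.2, 19.96, 17.8 and 26.7 with KPC1. No co-culture library reached the lowest mono-culture library, and the group means with clones H, T and V and KPC1 were the lowest. The mean fell from 44.0 ± 1.85 CPM (SD, n = 4) to 17.9 ± 2.43 CPM (SD, n = 4) with clone V, with a log2 fold change of -1.30 (edgeR adjusted p = 9.26e-09, SE 0.146). With clones K and M the values were -0.30 and -0.35 and did not pass the test, and the mean log2 fold change over the clones was -0.83 (edgeR adjusted p = 5.44e-08, SE 0.101).

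Ndufa1 (ENSMUSG00000016427, chrX:37187588-37191163, minus strand), a small membrane-arm subunit needed for complex I assembly, was the only member lower in all 8 lines. Ndufa1 stood at 31.3, 35.9, 28.6 and 30.8 CPM in the 4 mono-culture libraries. The first 6 clones gave 26.2, 22.5, 20.5 and 21.1 with clone E and 20.8, 18.6, 18.6 and 23.3 with clone H, 21.5, 22.6, 27.7 and 23.5 with clone K and 22.3, 20.3, 19.3 and 20.1 with clone M, and 24.03, 17.98, 18.4 and 30.3 with clone N and 18.2, 17.7, 18.8 and 17.8 with clone T. For the remaining cultures the values were 20.6, 20.7, 20.9 and 19.9 with clone V and 19.4, 19.9, 23.2 and 24.8 with KPC1. A single co-culture library, at 30.3 CPM with clone N, lay inside the mono-culture range, and the others lay below its lowest value of 28.6 CPM. Its log2 fold changes ran from -0.41 with clone K to -0.80 with clone T, and the mean log2 fold change over the clones was -0.58 (edgeR adjusted p = 2.46e-06, SE 0.0882). Differences among the clones did not pass the F-test (edgeR adjusted p = 0.0825).

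Ndufa5 (ENSMUSG00000023089, chr6:24518666-24528013, minus strand), a subunit of the matrix arm, fell in 7 lines, all but clone K. Ndufa5 stood at 45.5, 43.2, 43.9 and 38.3 CPM in the 4 mono-culture libraries. In co-culture the values were 29.97, 23.7, 24.3 and 29.4 with clone E and 18.6, 21.4, 17.7 and 26.4 with clone H, 38.8, 34.8, 30.6 and 33.5 with clone K and 29.2, 30.1, 26.9 and 27.8 with clone M, and 33.9, 22.4, 22.4 and 27.4 with clone N and 19.8, 23.4, 17.3 and 22.6 with clone T. They were 22.9, 20.7, 19.997 and 22.6 with clone V and 20.6, 24.96, 17.6 and 24.8 with KPC1. The mono-culture libraries were separate from all co-culture libraries but the first with clone K, which lay just above the lowest of them. Its mean log2 fold change over the clones was -0.76 (edgeR adjusted p = 8.33e-08, SE 0.0936). Ndufab1 (ENSMUSG00000030869, chr7:122085403-122101886, minus strand), the acyl carrier protein that also serves mitochondrial fatty acid synthesis, went from 26.8 ± 1.43 CPM (SD, n = 4) in mono-culture to 12.4 ± 1.68 CPM (SD, n = 4) with clone V, a log2 fold change of -1.11 (edgeR adjusted p = 7.37e-08, SE 0.139). With clone K it stood at 23.1 ± 1.47 CPM (SD, n = 4), a difference of -0.21 that did not pass. Other accessory genes with a mean clonal fall were Ndufc2 (-0.56), Ndufs5 (-0.49), Ndufa3 (-0.43) and Ndufv3 (-0.42).

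Complex II, succinate dehydrogenase, which also works in the TCA cycle, had few calls. Of its 4 genes 1 rose (25%) and 0 fell in the mean of the clones, against 24.3% and 24.9% of all genes. Sdhb (ENSMUSG00000009863, chr4:140961203-140979193, plus strand), the iron-sulphur subunit, rose in 5 lines, more than any other subunit. Sdhb stood at 63.1, 67.6, 61.6 and 55.2 CPM in the 4 mono-culture libraries. Co-culture gave 76.03, 65.3, 71.9 and 70.1 with clone E and 67.9, 83.2, 78.5 and 83.4 with clone H, then 60.7, 58.0, 61.1 and 59.5 with clone K and 55.7, 53.4, 60.6 and 66.3 with clone M, and 72.7, 72.1, 77.7 and 89.3 with clone N and 74.9, 73.8, 77.7 and 79.3 with clone T. It was found at 85.4, 69.7, 77.2 and 97.3 with clone V and 84.6, 75.3, 78.8 and 90.8 with KPC1. With clones H, N, T and V and with KPC1 all libraries lay above the highest mono-culture value of 67.6 CPM, whereas those with clones E, K and M overlapped the mono-culture range. The log2 fold change was 0.41 (edgeR adjusted p = 0.00027, SE 0.0916) with clone V and 0.21 (edgeR adjusted p = 0.0136, SE 0.0705) in the mean of the clones. That mean was no longer called without mono-culture replicate 4, nor with library totals as the only scaling, where it was 0.15.

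The other subunits of complex II were called in fewer lines. Sdhc, a membrane anchor, fell with clone H (-0.31), clone V (-0.32) and KPC1 (-0.28), and each of these calls was lost in 3 or 4 of the fits that left out a library. Its mean was 80.2 ± 6.27 CPM (SD, n = 4) in mono-culture and 64.2 to 86.0 CPM in the co-cultures. Sdha, the flavoprotein, was called in 0 lines, with 152 ± 6.15 CPM (SD, n = 4) in mono-culture and 149 to 172 CPM in the co-culture means. Sdhd, the other anchor, was likewise called in 0 lines against mono-culture, with 73.3 ± 5.58 CPM (SD, n = 4) there and 59.1 to 85.9 CPM in the co-cultures.

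Complex III, the cytochrome bc1 complex, divided into members that fell and members that did not. In the mean of the clones 4 of 8 nuclear genes (50%) fell, against 24.9% of all genes (median -0.25): Uqcrc2 (-0.60), Uqcrb (-0.56), Uqcr11 (-0.51) and Uqcr10 (-0.27). The core protein Uqcrc1 (0.01) and the Rieske iron-sulphur protein Uqcrfs1 (0.02) were not called. Those lower numbered 4 with clones H, T and V (50%), 3 with KPC1 (37.5%), 2 with E and N (25%), 1 with M (12.5%) and 0 with K. Of all genes 26.4%, 24.7%, 28.9%, 28.5%, 15.5%, 19.2%, 10.8% and 8.69% fell in the same order.

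Uqcrc2 (ENSMUSG00000030884, chr7:120635176-120659524, plus strand), the second core protein, fell in 6 lines. Uqcrc2 stood at 61.8, 71.0, 65.7 and 61.5 CPM in the 4 mono-culture libraries. Its values were 47.0, 38.5, 41.1 and 45.4 with clone E and 27.1, 24.7, 33.4 and 48.1 with clone H, 52.4, 47.6, 48.6 and 51.9 with clone K and 56.7, 51.0, 52.9 and 55.4 with clone M, and 52.1, 40.6, 45.7 and 59.9 with clone N and 35.1, 44.5, 33.2 and 41.6 with clone T. The others were 28.7, 32.7, 44.6 and 34.4 with clone V and 44.5, 57.0, 39.1 and 61.7 with KPC1. The lowest libraries were those with clone H, at 24.7 and 27.1 CPM, and the KPC1 libraries spread from 39.1 to 61.7 CPM, the last inside the mono-culture range. With clone H the difference was -0.96 (edgeR adjusted p = 7.56e-06, SE 0.158) on the log2 scale, and -0.60 (edgeR adjusted p = 4.79e-05, SE 0.113) in the mean of the clones. The calls with clone N and KPC1 had edgeR adjusted p = 0.0472 and 0.0466 and were each lost in 14 of the fits that left out a library. An opposite-strand gene, Pdzd9, overlaps its exons and shares 23.7% of its 76-base windows.

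Uqcrq (ENSMUSG00000044894, chr11:53427922-53430831, minus strand), a small subunit of the same complex, moved in opposite directions with different lines. Uqcrq stood at 68.1, 76.2, 60.8 and 72.9 CPM in the 4 mono-culture libraries. The first 6 clones gave 92.6, 59.1, 69.4 and 80.3 with clone E and 76.05, 91.6, 92.0 and 81.3 with clone H, 76.8, 61.6, 59.5 and 49.4 with clone K and 44.1, 53.9, 39.5 and 56.0 with clone M, and 92.0, 70.5, 77.0 and 91.0 with clone N and 74.5, 95.2, 77.95 and 83.1 with clone T. For the remaining cultures the values were 156, 101, 109 and 97.3 with clone V and 103, 115, 82.9 and 125 with KPC1. All 4 libraries with clone M lay below the lowest mono-culture value of 60.8 CPM, and all 4 with clone V and with KPC1 lay above the highest of 76.2 CPM. Its log2 fold change was -0.53 (edgeR adjusted p = 0.0128, SE 0.155) with clone M and 0.73 (edgeR adjusted p = 0.000138, SE 0.154) with clone V. The call with clone M was lost without clone M replicate 3. Among the clones Uqcrq was among the 5 members with the smallest p-values (edgeR F-test, adjusted p = 1.34e-06).

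**Figure D2:**
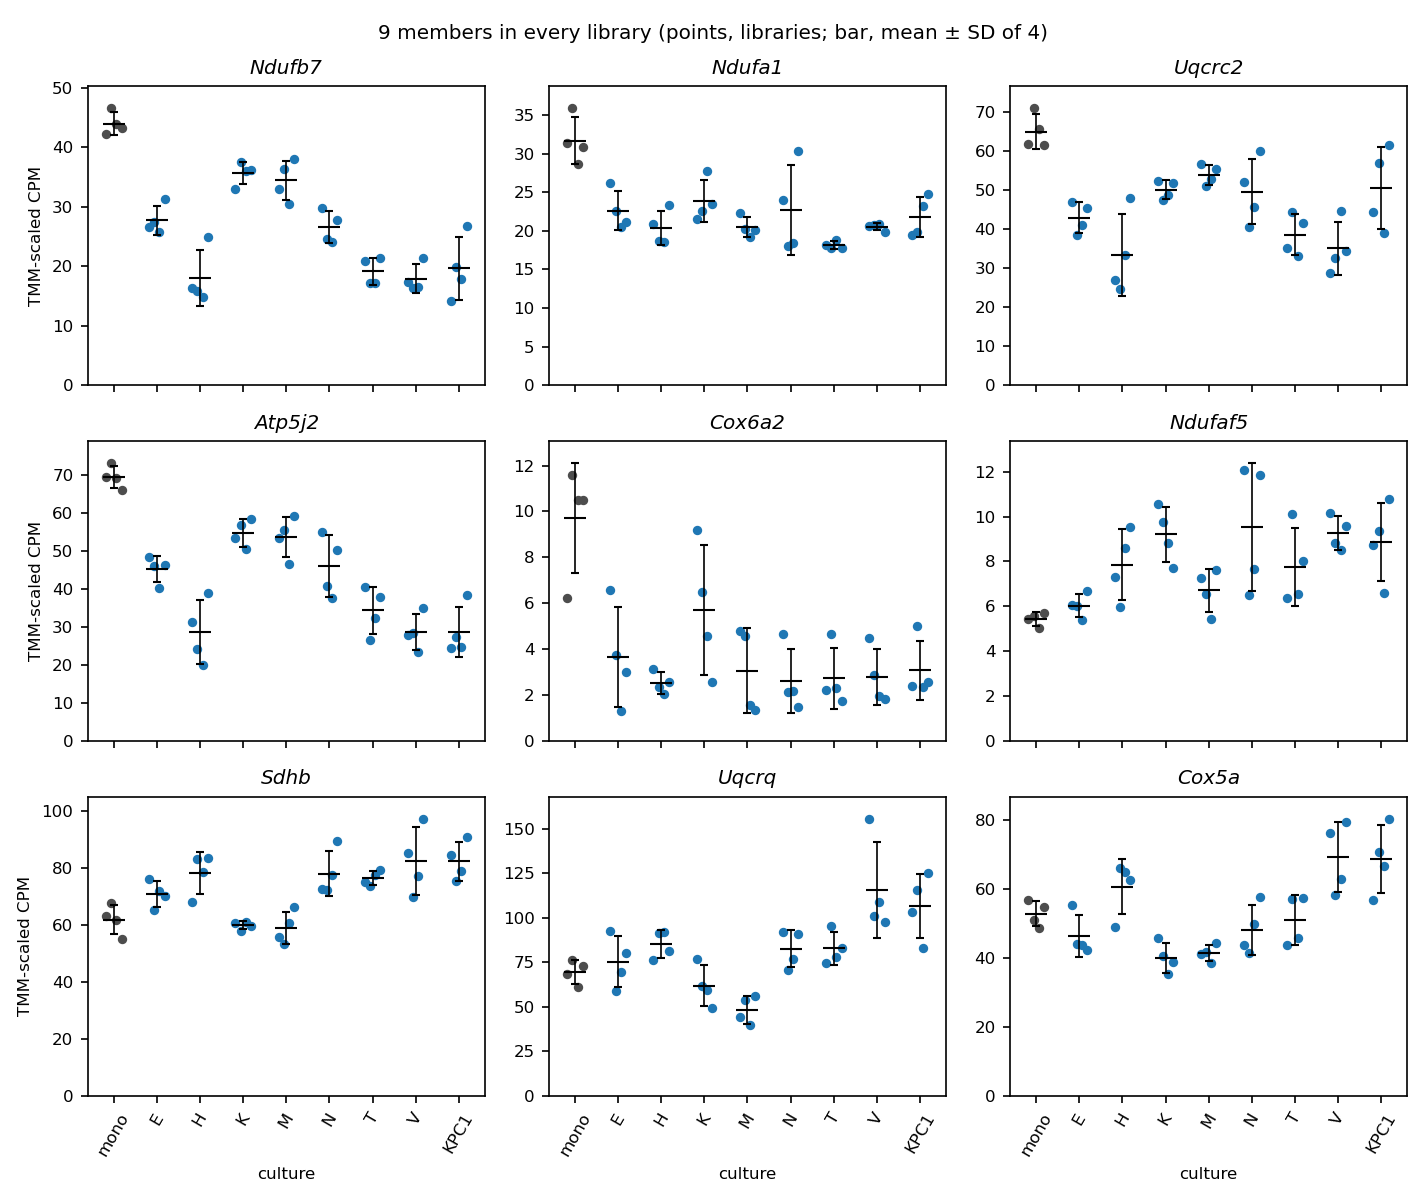
TMM-scaled CPM (y axes, linear, each from 0) of 9 genes in the 36 libraries, by culture on the x axis; each point is a library, grey for mono-culture and blue for co-culture, in order of replicate number, with a bar at the group mean and its SD. Ndufb7 and Atp5j2 are below the mono-culture range in every co-culture, whereas all libraries with clone V are above it for Sdhb, Uqcrq and Cox5a.

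In complex IV, cytochrome c oxidase, 4 of 15 nuclear genes (26.7%) fell in the mean of the clones (median -0.17) and 0 rose, a share near the 24.9% of all genes that fell. Cox6a2 (ENSMUSG00000030785, chr7:128205435-128206387, minus strand), the isoform of subunit VIa known from heart and skeletal muscle, had the lowest fold change of all nuclear subunits. Cox6a2 stood at 6.22, 11.6, 10.5 and 10.5 CPM in the 4 mono-culture libraries. In co-culture the values were 6.56, 3.74, 1.29 and 2.999 with clone E and 3.11, 2.32, 2.01 and 2.57 with clone H, 9.19, 6.5003, 4.55 and 2.56 with clone K and 4.78, 4.55, 1.55 and 1.34 with clone M, and 4.65, 2.11, 2.15 and 1.47 with clone N and 2.19, 4.67, 2.29 and 1.72 with clone T. They were 4.48, 2.84, 1.96 and 1.79 with clone V and 2.37, 5.005, 2.34 and 2.57 with KPC1. Replicate 1 of mono-culture, at 6.22 CPM, was the lowest of its group, and 25 of the 28 clonal libraries lay below it. The mean log2 fold change over the clones was -1.61 (edgeR adjusted p = 3.48e-05, SE 0.292), and 7 lines were called. With clone K it was -0.77 and was not called, and the call with clone E was lost without clone E replicate 3. Itgad on the opposite strand overlaps its exons.

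Per length, the muscle isoform was a minor product next to its partner. In mono-culture Cox6a2 stood at 14.9 ± 3.48 RPKM (counts divided by exon length and library total, SD, n = 4), against 248 ± 19.9 RPKM for Cox6a1, the isoform of most tissues. Cox6a1 fell in the mean of the clones by a smaller step, -0.21 (edgeR adjusted p = 0.00649, SE 0.0637), and that call was lost without mono-culture replicate 2. Of the other isoform pairs, Ndufa4 stood at 226 ± 15.1 RPKM and Ndufa4l2, known as a hypoxia-responsive gene, at 2.02 ± 0.655 RPKM. Cox6b1 stood at 130.2 ± 8.32 RPKM against 1.27 ± 0.179 RPKM for its testis partner Cox6b2. Cox4i2, Cox7b2, Cox8b and Cox8c held 41, 1, 0 and 0 counts over all 36 libraries, and Cox7a1 held 258, so they were not members.

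The partners did not change alike. Ndufa4 fell in 6 lines, with a mean of -0.60 (edgeR adjusted p = 0.000177, SE 0.124), from 102 ± 7.91 CPM (SD, n = 4) to 51.0 ± 19.8 CPM (SD, n = 4) with KPC1. Ndufa4l2 fell with clones H (-1.32) and V (-1.52) only, and its value with clone M was 0.88, which did not pass. Its levels were low, 1.81 ± 0.590 CPM (SD, n = 4) in mono-culture and 0.618 ± 0.352 CPM (SD, n = 4) with clone V. Cox6b1 fell with clone H (-0.37, lost in 5 of the fits that left out a library), and Cox6b2 fell with clone V (-1.33), from 0.714 ± 0.117 CPM (SD, n = 4) to 0.282 ± 0.0908 CPM (SD, n = 4). Cox7a2 fell in the mean of the clones (-0.43), while Cox7a2l, which takes part in supercomplexes, was called in 0 lines. Cox4i1, at 458 ± 37.0 RPKM in mono-culture, was also called in 0 lines (-0.19, edgeR adjusted p = 0.105), and Cox8a fell only with clone K (-0.24, lost in 4 of the fits that left out a library).

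Cox5a (ENSMUSG00000000088, chr9:57521274-57532426, plus strand), a matrix-side subunit, was the second member called in both directions. Cox5a stood at 56.8, 51.0, 48.7 and 54.7 CPM in the 4 mono-culture libraries. Co-culture gave 55.2, 44.0, 43.6 and 42.2 with clone E and 48.9, 66.1, 64.9 and 62.4 with clone H, then 45.6, 40.5, 35.2 and 38.8 with clone K and 41.0, 41.7, 38.5 and 44.2 with clone M, and 43.8, 41.3, 49.7 and 57.7 with clone N and 43.7, 56.9, 45.8 and 57.3 with clone T. It was found at 76.2, 58.3, 62.8 and 79.4 with clone V and 56.7, 70.7, 66.5 and 80.2 with KPC1. With clones K and M all 8 libraries were below the lowest mono-culture value of 48.7 CPM, with clone V all 4 were above the highest of 56.8 CPM, and the KPC1 libraries reached from 56.7 CPM to 80.2 CPM. On the log2 scale it fell with clone K, -0.40 (edgeR adjusted p = 0.0215, SE 0.125), and rose with clone V, 0.39 (edgeR adjusted p = 0.00788, SE 0.124). Gm26631 on the opposite strand overlaps its exons and shares 21.4% of its windows. Cox6c, the highest of complex IV in the mean of the clones at 0.18, rose with clone N alone (0.53), from 72.3 ± 3.56 CPM (SD, n = 4) to 104 ± 18.2 CPM (SD, n = 4).

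Complex V, the ATP synthase, had 7 of 15 nuclear genes (46.7%) lower and 0 higher in the mean of the clones (median -0.18), where 24.9% of all genes fell. Atp5j2 (ENSMUSG00000038690, chr5:145183698-145192062, minus strand), subunit f of the membrane part, fell the most. Atp5j2 stood at 69.5, 73.0, 69.1 and 66.0 CPM in the 4 mono-culture libraries. Its values were 48.3, 46.0, 40.2 and 46.2 with clone E and 31.3, 23.99, 19.9 and 39.0 with clone H, 53.3, 56.9, 50.3 and 58.3 with clone K and 53.2, 55.5, 46.6 and 59.2 with clone M, and 55.0, 40.6, 37.7 and 50.3 with clone N and 40.5, 26.4, 32.4 and 37.9 with clone T. The others were 27.7, 28.3, 23.4 and 34.8 with clone V and 24.3, 27.3, 24.5 and 38.4 with KPC1. The mono-culture libraries stood clear of all 32 co-culture libraries, and the group means with clones H and V and KPC1 were the lowest. The log2 fold change was -1.28 (edgeR adjusted p = 8.89e-08, SE 0.163) with clone V and -0.79 (edgeR adjusted p = 1.12e-06, SE 0.113) in the mean of the clones, with clones K (-0.34) and M (-0.37) short of the threshold.

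The 3 genes for subunit c, which encode the same mature ring protein, behaved differently. Atp5g2, the highest per length at 168 ± 12.4 RPKM in mono-culture, fell in 5 lines with a mean of -0.41 (edgeR adjusted p = 0.000132, SE 0.0827). Atp5g3, at 114 ± 5.45 RPKM, was called in 0 lines. Atp5g1, at 10.7 ± 0.513 RPKM, rose with clone V (0.42), a call lost without clone V replicate 1. The order per length rests on the exon lengths implied by counts and RPKM. These were 440 bases for Atp5g2, 860 for Atp5g3 and 4706 for Atp5g1. By mean counts over the 36 libraries the order was different, with 1010 for Atp5g2, 1599 for Atp5g3 and 917 for Atp5g1. The catalytic subunit Atp5b, the most abundant nuclear member at 511 ± 19.4 RPKM, fell by a small step with clones T, N, E, K and M, from -0.18 to -0.34, and stood at 0.02 with clone V. The shaft subunit Atp5c1, the highest of complex V in the mean of the clones, rose with KPC1 alone (0.36), from 175 ± 19.6 CPM (SD, n = 4) to 225 ± 43.3 CPM (SD, n = 4), a call lost in 2 of the fits that left out a library and with library totals as the only scaling.

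Summed over a complex, the differences were smaller than for the leading genes. Relative to the mono-culture mean, the summed CPM of nuclear complex I genes was 0.813 with clone H and 0.953 with clone N, the extremes of the 8 lines. Complex III ranged from 0.814 (clone H) to 0.962 (clone N), complex IV from 0.852 (clone H) to 0.995 (clone N) and complex V from 0.858 (clone K) to 0.941 (KPC1). Complex II ranged from 0.940 (clone K) to 1.09 (KPC1). The 78 nuclear subunit genes together held 7201.5 ± 341 CPM in mono-culture, compared with 6248 ± 538 CPM with clone H (SD, n = 4 each), the lowest mean.

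The rule also brought in 9 genes that help to assemble the complexes or bear an Atp5 symbol without being subunits. In the mean of the clones 1 rose and 2 fell (22.2%), against 24.3% and 24.9% of all genes. Ndufaf3 (ENSMUSG00000070283, chr9:108565537-108567434, minus strand), an early assembly factor of complex I, had a low level and a large change. Ndufaf3 stood at 3.74, 3.85, 3.73 and 4.57 CPM in the 4 mono-culture libraries. The first 6 clones gave 1.53, 1.92, 1.29 and 1.85 with clone E and 1.078, 0.657, 0.619 and 2.57 with clone H, 3.30, 3.51, 2.27 and 2.61 with clone K and 3.97, 2.49, 2.58 and 3.58 with clone M, and 2.32, 1.79, 1.54 and 2.67 with clone N and 1.57, 0.879, 1.47 and 1.66 with clone T. For the remaining cultures the values were 0.560, 0.818, 1.09 and 1.79 with clone V and 1.63, 1.03, 1.42 and 2.57 with KPC1. A single co-culture library, at 3.97 CPM with clone M, reached into the mono-culture range, and the other 31 were below its lowest value of 3.73 CPM. On the log2 scale the differences were -1.91 (edgeR adjusted p = 2.51e-05, SE 0.350) with clone V and -1.15 (edgeR adjusted p = 0.000112, SE 0.230) in the mean of the clones, and the call with clone N was lost in 3 of the fits that left out a library. Impdh2 overlaps its exons on the opposite strand.

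Ndufaf1 (ENSMUSG00000027305, chr2:119655446-119662827, minus strand), a membrane-arm assembly factor, fell in 6 lines, from 15.6 ± 0.352 CPM (SD, n = 4) to 7.29 ± 1.54 CPM (SD, n = 4) with clone H, and its mean log2 fold change over the clones was -0.60 (edgeR adjusted p = 1.71e-06, SE 0.0883). Ndufaf5 (ENSMUSG00000027384, chr2:140170649-140203689, plus strand), which hydroxylates a core subunit during assembly, went the other way. Ndufaf5 stood at 5.45, 5.56, 5.02 and 5.71 CPM in the 4 mono-culture libraries. In co-culture the values were 6.03, 5.99, 5.40 and 6.70 with clone E and 7.31, 5.96, 8.62 and 9.56 with clone H, 10.6, 9.75, 8.83 and 7.69 with clone K and 7.26, 6.56, 5.44 and 7.61 with clone M, and 12.1, 6.499, 7.65 and 11.9 with clone N and 6.35, 10.1, 6.56 and 8.03 with clone T. They were 10.2, 8.81, 8.50 and 9.57 with clone V and 8.75, 9.35, 6.59 and 10.8 with KPC1. The libraries with clones H, K, N, T and V and KPC1 were all above the highest mono-culture value of 5.71 CPM. The log2 fold change was 0.81 (edgeR adjusted p = 0.000712, SE 0.183) with clone N and 0.55 (edgeR adjusted p = 0.00222, SE 0.145) in the mean of the clones, with 26 of 28 clonal libraries above mono-culture. The calls with clones H and T were each lost without a library of that clone. A list of other assembly factors for complexes I to V, outside the rule, showed 5 of 36 higher and 10 lower in the mean of the clones. Of all genes 24.3% were higher and 24.9% lower. Atpaf1 (-0.82) and Coa3 (-0.68) were among those lower and Foxred1 (0.36) among those higher.

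Promoter windows from RefSeq (build GRCm38.p6, 250 bases before to 50 after the start) were found for 73 of the 87 nuclear members, 3 of them under another symbol. Each was searched on both strands for letters linked to regulators of these genes: CGCATGCG, the core of the NRF1 site, CCGGAAG for ETS factors such as GABPA, ATGGCGGC for YY1, TGACGTCA for CREB-type factors and CAAGGTCA for oestrogen-related receptors. The NRF1 core was in 13.9% of 79 member windows and 1.87% of 32851 windows of all genes. The ETS letters were in 21.5% and 8.86%, those of YY1 in 11.4% and 2.24%, those of the CREB type in 5.06% and 1.79%, and those of the oestrogen-related receptors in 5.06% and 1.56%. In the mean of the clones the 11 members with the NRF1 core had a median log2 fold change of -0.21 and the 62 without it -0.18, and 7 and 27 were called, where 49.2% of all genes were. The medians with and without the letters were -0.15 and -0.20 for ETS (17 and 56 members, 8 and 26 called), -0.26 and -0.17 for YY1 (7 and 66, 5 and 29 called), -0.09 and -0.21 for the CREB type (4 and 69, 1 and 33 called) and -0.22 and -0.19 for the oestrogen-related receptors (4 and 69, 2 and 32 called). The sets were small, and the order of the medians differed between them. The windows below are the 250 bases before the start, shown for 4 members chosen as examples of genes that fell or rose (Ndufb7, Ndufaf3, Ndufaf5 and Sdhb) and for Uqcr11 and Atp5l, which held the letters of several regulators, in lower case with matches in capitals.
Ndufb7, chr8:83566508-83566757, plus strand: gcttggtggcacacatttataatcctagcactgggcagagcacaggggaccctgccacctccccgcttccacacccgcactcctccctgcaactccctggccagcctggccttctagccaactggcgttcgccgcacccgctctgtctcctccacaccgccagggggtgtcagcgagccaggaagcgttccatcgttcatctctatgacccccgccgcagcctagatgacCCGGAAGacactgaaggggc
Ndufaf3, chr9:108567437-108567686, minus strand: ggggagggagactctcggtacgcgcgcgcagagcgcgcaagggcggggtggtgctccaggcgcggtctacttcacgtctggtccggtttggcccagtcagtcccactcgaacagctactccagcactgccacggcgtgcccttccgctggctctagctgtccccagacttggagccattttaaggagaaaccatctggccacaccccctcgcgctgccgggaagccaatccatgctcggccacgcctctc
Ndufaf5, chr2:140170396-140170645, plus strand: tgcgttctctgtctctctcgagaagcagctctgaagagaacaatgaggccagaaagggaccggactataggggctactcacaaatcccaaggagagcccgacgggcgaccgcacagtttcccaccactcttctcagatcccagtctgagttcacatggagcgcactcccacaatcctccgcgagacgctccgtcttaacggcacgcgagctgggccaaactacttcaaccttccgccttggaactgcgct
Sdhb, chr4:140961021-140961270, plus strand: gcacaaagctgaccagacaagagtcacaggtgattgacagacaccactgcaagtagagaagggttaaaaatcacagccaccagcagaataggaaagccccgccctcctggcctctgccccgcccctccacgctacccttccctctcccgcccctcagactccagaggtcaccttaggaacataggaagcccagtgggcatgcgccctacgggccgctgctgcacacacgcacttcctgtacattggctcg
Uqcr11, chr10:80406822-80407071, minus strand: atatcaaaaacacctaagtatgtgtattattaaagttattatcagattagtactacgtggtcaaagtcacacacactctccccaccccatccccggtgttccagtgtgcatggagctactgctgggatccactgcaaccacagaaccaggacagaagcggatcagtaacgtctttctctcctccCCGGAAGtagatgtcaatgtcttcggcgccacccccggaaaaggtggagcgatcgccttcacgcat
Atp5l, chr9:44920743-44920992, minus strand: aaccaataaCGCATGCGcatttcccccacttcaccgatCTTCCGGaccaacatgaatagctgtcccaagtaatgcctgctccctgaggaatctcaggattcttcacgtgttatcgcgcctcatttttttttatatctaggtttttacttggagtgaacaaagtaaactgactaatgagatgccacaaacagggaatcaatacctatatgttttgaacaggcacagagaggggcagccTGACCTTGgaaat
Ndufb7, which fell most in complex I, held the ETS letters, and Ndufaf3, which fell further, held none of the 5 sets of letters. Ndufaf5, which rose, had the NRF1 core at base 17 after the start, beyond the printed stretch, and Sdhb, the subunit raised in the most lines, had the ETS letters at base 6 after it. Uqcr11 (-0.51 (edgeR adjusted p = 0.000398, SE 0.113)) held the ETS letters in the printed stretch, and an NRF1 core spanned its start. Atp5l (-0.34 (edgeR adjusted p = 0.0345, SE 0.133)) held the NRF1 core, the ETS letters on the other strand and those of the oestrogen-related receptors on the other strand. Atp5l was also the single nuclear member with more than 50% of its 76-base windows in other genes (75.7%, mostly pseudogenes), so its counts are uncertain. Exons of 29 nuclear members overlap a gene on the opposite strand and those of 5 a gene on the same strand, and 36 share at least 1 window with another gene.

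Regulators and partner pathways were counted from fixed lists in the same fit, where 24.3% of all genes rose and 24.9% fell in the mean of the clones. Of 9 regulators of mitochondrial biogenesis 6 rose and 1 fell in the mean of the clones (median 0.32), and 7 rose and 1 fell with KPC1 (0.67). Esrra (0.53), Gabpb1 (0.44) and Myc (1.40) were among those higher, and Ppargc1a, the coactivator PGC-1alpha, fell in all 8 lines, with a mean of -1.89. Of 16 TCA cycle and pyruvate dehydrogenase genes 5 rose and 3 fell (median 0.06), with Dlst (0.42), Dld (0.41), Ogdh (0.34) and Cs (0.20) higher and Dlat (-0.33) among the lower. With clone H 9 of the 16 rose and 3 fell, and with KPC1 9 rose and 2 fell. Among all genes 27.8% rose and 26.4% fell with clone H, and 30.5% rose and 28.5% fell with KPC1. Of 16 genes for mitochondrial DNA expression and upkeep 6 rose, such as Polrmt (0.36) and Tfam (0.22), and 4 fell. Of 4 electron carriers and further subunits, Cycs, the gene for cytochrome c, rose (0.59) and Atpif1, the inhibitor of ATP synthase, fell (-0.34). Of 75 mitochondrial ribosomal protein genes 8 rose and 22 fell (median -0.07).

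Exon length was set beside the fold changes because poly(A)-selected libraries can depend on it. Over the 78 nuclear subunits the Spearman correlation between exon length and log2 fold change was 0.298 in the mean of the clones and 0.22 to 0.29 in the single lines, against 0.101 and 0.036 to 0.20 over 14307 genes. These are correlations across genes that share libraries and are given as descriptions. Of 43 subunits under 1000 bases 21 fell (median -0.24), while 19.3% of all 1337 genes of that length fell (median -0.03). Of 22 between 1000 and 2000 bases 10 fell and 1 rose (median -0.09), with 27.4% of all genes lower. Of 10 between 2000 and 4000 bases 2 fell (median -0.08), with 27.2% of all genes lower. Of 3 over 4000 bases 2 fell (median -0.38), with 22.4% of all genes lower. The members longest by this measure thus did not follow the order of the shorter ones. They were Ndufb2 (4363 bases), Ndufb7 (4427) and Atp5g1 (4706). The lengths are implied by counts and RPKM and need not be those of the transcripts expressed.

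**Figure D3:**
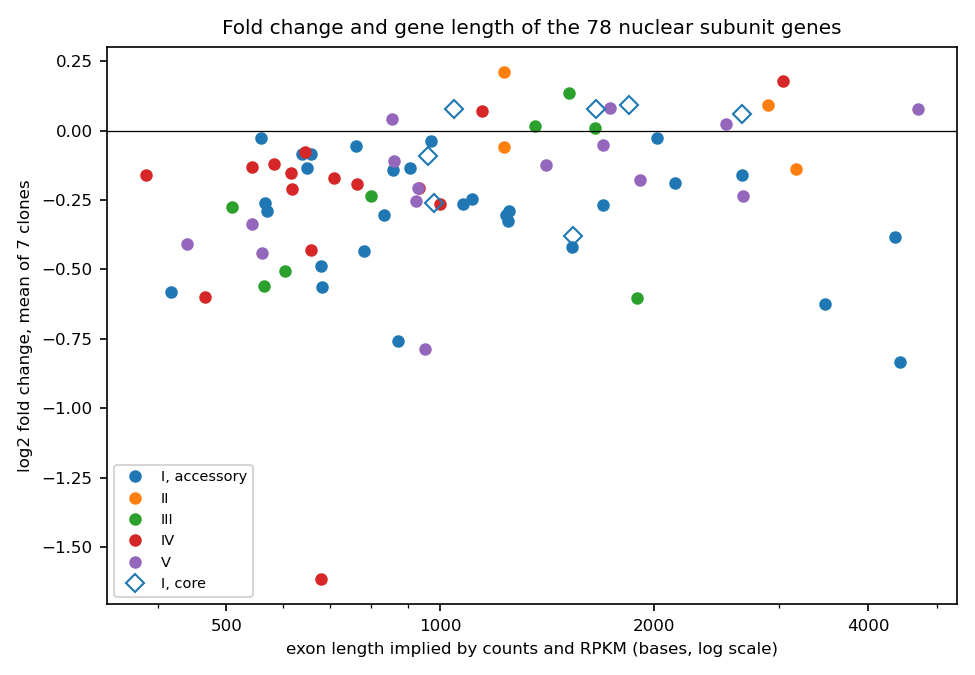
Exon length in bases (x axis, log scale) against the log2 fold change of the mean of the 7 clones over mono-culture (y axis) for 78 nuclear subunit genes, coloured by complex; open diamonds mark the 7 core subunits of complex I. Cox6a2 (-1.61) and Atp5j2 (-0.79) lie under 1000 bases and Ndufb7 (-0.83) at 4427 bases, counted over all its isoforms, while 5 of the 7 core subunits lie between -0.09 and 0.09.

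The clones differed from one another as well as from mono-culture. With an F-test across the 7 clonal co-cultures, which does not use the mono-culture libraries, 46 of 99 members (46.5%) were called, against 67.5% of all genes. They were 40 of the 78 nuclear subunits: 16 of 36 in complex I (5 of 7 core and 11 of 29 accessory), 3 of 4 in complex II, 7 of 8 in complex III, 6 of 15 in complex IV and 8 of 15 in complex V. Of the assembly factors 5 of 9 were called and of the mitochondrially encoded genes 1 of 12. The smallest adjusted p-values were those of Ndufb7 (7.15e-08), Ndufaf1 (9.74e-08), Ndufab1 (4.43e-07), Uqcrq (1.34e-06) and Atp5j2 (2.45e-06). Across all 9 groups 63 of 99 members (63.6%) were called, against 78.6% of all genes.

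KPC1 was also set against the mean of the 7 clones. Of the 78 nuclear subunits 10 were higher and 7 lower with KPC1, against 22.3% and 18.8% of all genes, and of all 99 members 25 were called, against 41.1% of all genes. With library totals as the only scaling 3 nuclear subunits were higher and 7 lower, and without KPC1 replicate 4 2 were higher and 19 lower, so the balance of directions depended on the scaling and on that library. Atp5sl, a factor for the complex I membrane arm, had the highest value, 0.51 (edgeR adjusted p = 0.00826, SE 0.152), a call lost without KPC1 replicate 1, with 12.2 ± 2.13 CPM (SD, n = 4) with KPC1 and 8.31 ± 0.480 CPM (SD, n = 4) in mono-culture. Atp5j2 had the lowest, -0.49 (edgeR adjusted p = 0.00282, SE 0.128). Uqcrq (0.48), Cox5a (0.45) and Ndufa6 (0.36) were higher with KPC1, and mt-Nd5 (-0.49), mt-Nd1 (-0.38) and mt-Nd4 (-0.38) were lower.

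Few mitochondrially encoded genes were called. Of the 12, 2 rose (16.7%) and 0 fell in the mean of the clones, against 24.3% and 24.9% of all genes. With the single lines 0 were called with clones E, K and M, 2 rose with N, 2 rose with T, 1 fell with H, 1 rose and 1 fell with V, and 2 rose and 1 fell with KPC1. Those that rose were mt-Co1, the catalytic subunit of complex IV, and mt-Atp6, a proton-channel subunit of complex V, and the gene that fell was mt-Nd5, a proton-pumping subunit of complex I. Of all genes 32% were called with clone E, 19.1% with K, 23% with M and 39% with N. The shares were 49.8% with clone T, 54.2% with H, 58.3% with V and 59% with KPC1. The median log2 fold change of the 12 was 0.16 with clone E, -0.03 with H, 0.29 with K, 0.25 with M, 0.18 with N, 0.12 with T, -0.03 with V and -0.17 with KPC1. Without mono-culture replicate 4 each of these medians was lower, with clone E at -0.042 and with KPC1 at -0.36. With KPC1 the median of the 12 was near that of the 78 nuclear subunits, -0.15, and 8 of the 12 were below 0. Without the 9 libraries numbered 4, 6 were called lower and 0 higher with KPC1. The difference between the mitochondrially encoded and the nuclear genes was not tested.

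How far these 12 can be read varied with their sequence. In mono-culture mt-Co1 stood at 8594 ± 2356 RPKM, mt-Cytb at 6122 ± 1739, mt-Nd1 at 4911 ± 1421, mt-Nd2 at 2744 ± 707, mt-Nd5 at 2679 ± 776 and mt-Nd4 at 1656 ± 480.5 RPKM (SD, n = 4 each), all above the most abundant nuclear member. By contrast mt-Atp6 stood at 7.59 ± 1.24 RPKM and mt-Nd4l at 2.86 ± 1.47 RPKM. The genes mt-Nd3, mt-Nd4l, mt-Co3, mt-Co2 and mt-Atp6 shared 97.8% to 99.9% of their 76-base windows with annotated pseudogenes on chr1:24611535-24616197 (mm10, minus strand), and their mean counts were 6.22 to 113. For mt-Nd1, mt-Cytb, mt-Nd6, mt-Nd5 and mt-Nd2 the share was 0% to 5.61%, for mt-Co1 39.4% and for mt-Nd4 61.5%, with mean counts of 1662 to 290015. Shared sequence moves with the low counts of those 5 genes, and how the authors counted reads with several matches is not given in the sources used here. By annotated copies the exception was mt-Atp8, with 0% shared and a mean of 25.4 counts. It lies between mt-Co2 and mt-Atp6 and overlaps the latter. Only annotated transcripts were searched. The chr1 copies of mt-Atp6 and mt-Co2 are annotated up to base 24614651 and from base 24614885. An unannotated copy of mt-Atp8 between them would not be counted, so its 0% does not settle whether it shares sequence.

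**Figure D4:**
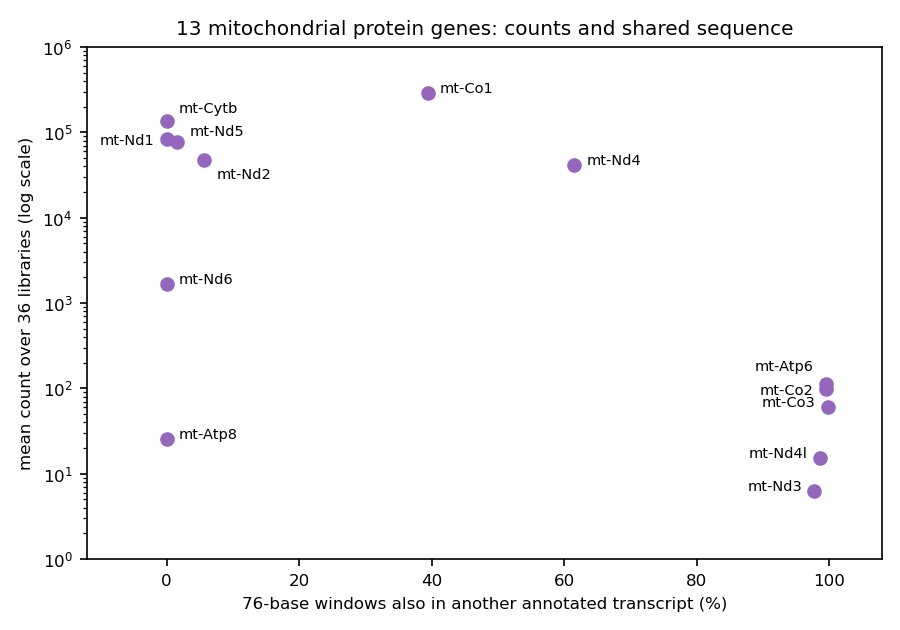
Share of 76-base windows found in another annotated gene, in percent (x axis), against the mean count over 36 libraries (y axis, log scale) for 13 mitochondrially encoded genes. The 5 genes above 97% on the x axis have mean counts of 113 or fewer, and mt-Atp8 has a low count with no shared window.

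mt-Nd5 (ENSMUSG00000064367, chrM:11742-13565, plus strand) was the single mitochondrially encoded gene that differed among the clones (edgeR F-test, adjusted p = 2.52e-06). mt-Nd5 stood at 5625, 5693, 4733 and 2709 CPM in the 4 mono-culture libraries. Co-culture gave 4818, 5508, 4982 and 4829 with clone E and 3063, 2967, 3274 and 2863 with clone H, then 5561, 6399.8, 5886 and 5768 with clone K and 5391, 5535, 5399 and 5337 with clone M, and 4527, 5078, 4321 and 3632 with clone N and 3543, 4364, 3787 and 3179 with clone T. It was found at 4042, 2961, 2630.1 and 2243 with clone V and 2753, 3005, 3082 and 3212 with KPC1. Replicate 4 of mono-culture, at 2709 CPM, lay far below the other 3 libraries of its group, and below all co-culture libraries but 2 with clone V. The libraries with clone H and KPC1 lay between 2753 and 3274 CPM, and those with clones E, K and M between 4818 and 6399.8 CPM. The log2 fold change was -0.62 (edgeR adjusted p = 0.00148, SE 0.160) with clone H, -0.66 (edgeR adjusted p = 0.000741, SE 0.160) with clone V and -0.64 (edgeR adjusted p = 0.001, SE 0.160) with KPC1, and without mono-culture replicate 4 the mean of the clones was also called (-0.35).

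mt-Co1 (ENSMUSG00000064351, chrM:5328-6872, plus strand) took the most counts of any member. mt-Co1 stood at 14932, 14503, 14064 and 7447 CPM in the 4 mono-culture libraries. Its values were 14362, 16251, 16303 and 16327 with clone E and 14133, 14384, 17052 and 16805 with clone H, 13136, 14985, 17955 and 18127 with clone K and 16404, 15370.3, 17421 and 18326 with clone M, and 13136, 18592, 17964 and 20493 with clone N and 14932, 19645, 16684 and 17213 with clone T. The others were 15491, 14209.9, 16852 and 14529.6 with clone V and 16724, 15641, 16756 and 20778 with KPC1. Replicate 4 of mono-culture, at 7447 CPM, again lay far below the other 3, which overlapped the co-culture libraries. The mean log2 fold change over the clones was 0.36 (edgeR adjusted p = 0.0173, SE 0.124). Without mono-culture replicate 4 it was 0.17 with edgeR adjusted p = 0.22, and the calls with clones N and T and KPC1 were lost as well.

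mt-Atp6 behaved alike at a much lower level. It stood at 5.89, 5.23, 4.72 and 3.98 CPM in mono-culture and at 5.91 to 6.91 CPM in the co-culture means, with a mean log2 fold change of 0.36 (edgeR adjusted p = 0.00844, SE 0.113) that was lost without mono-culture replicate 4 (edgeR adjusted p = 0.0836). With clone T, at 6.91 ± 0.676 CPM (SD, n = 4), the call remained without that library. The other 9 were called in 0 comparisons with mono-culture. mt-Cytb, in complex III, stood at 6721 ± 1949.6 CPM in mono-culture and 6407 to 8537 CPM in the co-culture means, mt-Nd1 at 4515 ± 1363 CPM and 3627 to 5114 CPM, and mt-Nd2 at 2735 ± 741 CPM and 2221 to 3004 CPM. mt-Nd4 stood at 2191 ± 655 CPM and 1822 to 2667 CPM, mt-Nd4l at 0.819 ± 0.441 CPM and 0.573 to 1.09 CPM, mt-Co2 at 4.89 ± 1.49 CPM and 4.79 to 6.27 CPM, mt-Co3 at 3.16 ± 0.575 CPM and 2.88 to 3.76 CPM, and mt-Atp8 at 1.076 ± 0.366 CPM and 1.13 to 1.74 CPM (SD, n = 4). mt-Nd6, the single member on the other strand, where it overlaps the end of mt-Nd5, varied widely within groups, with 197, 63.5, 108.4 and 65.1 CPM in the mono-culture libraries against 68.7, 107, 40.3 and 409 CPM with clone M, and the strand setting of the counting is not given in the sources used here.

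Set against each other within a library, mitochondrially encoded members took 2.08% to 4.60% of all counts and nuclear subunits far less. Mono-culture held 4.15%, 4.07%, 3.73% and 2.08% mitochondrially encoded counts, replicate 4 standing apart, and 0.752%, 0.768%, 0.764% and 0.717% nuclear subunit counts. The group means for the nuclear subunits were 0.614% with clone H to 0.690% with clone N, against 0.750% ± 0.0232 in mono-culture (SD, n = 4). Replicate 4 had the highest nuclear share in 8 of the 9 groups and the lowest in mono-culture.

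The log2 ratio of mitochondrially encoded to nuclear subunit counts was 2.46, 2.41, 2.29 and 1.53 in the mono-culture libraries (mean 2.17 ± 0.432). The co-culture means were higher by 0.41 with clone E, 0.28 with H, 0.54 with K, 0.52 with M, 0.34 with N, 0.44 with T, 0.21 with V and 0.21 with KPC1, and no test was made of this score. Without mono-culture replicate 4 the differences were 0.20, 0.07, 0.33, 0.31, 0.13, 0.22, -0.0032 and -0.0076 in the same order. Only with clones K and M did all 4 libraries lie above every mono-culture library, at 2.61 to 2.80 and 2.65 to 2.79. Leaving out mt-Co1, the gene with the most counts, gave 0.52 with clone K, 0.45 with M and -0.12 with KPC1.

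**Figure D5:**
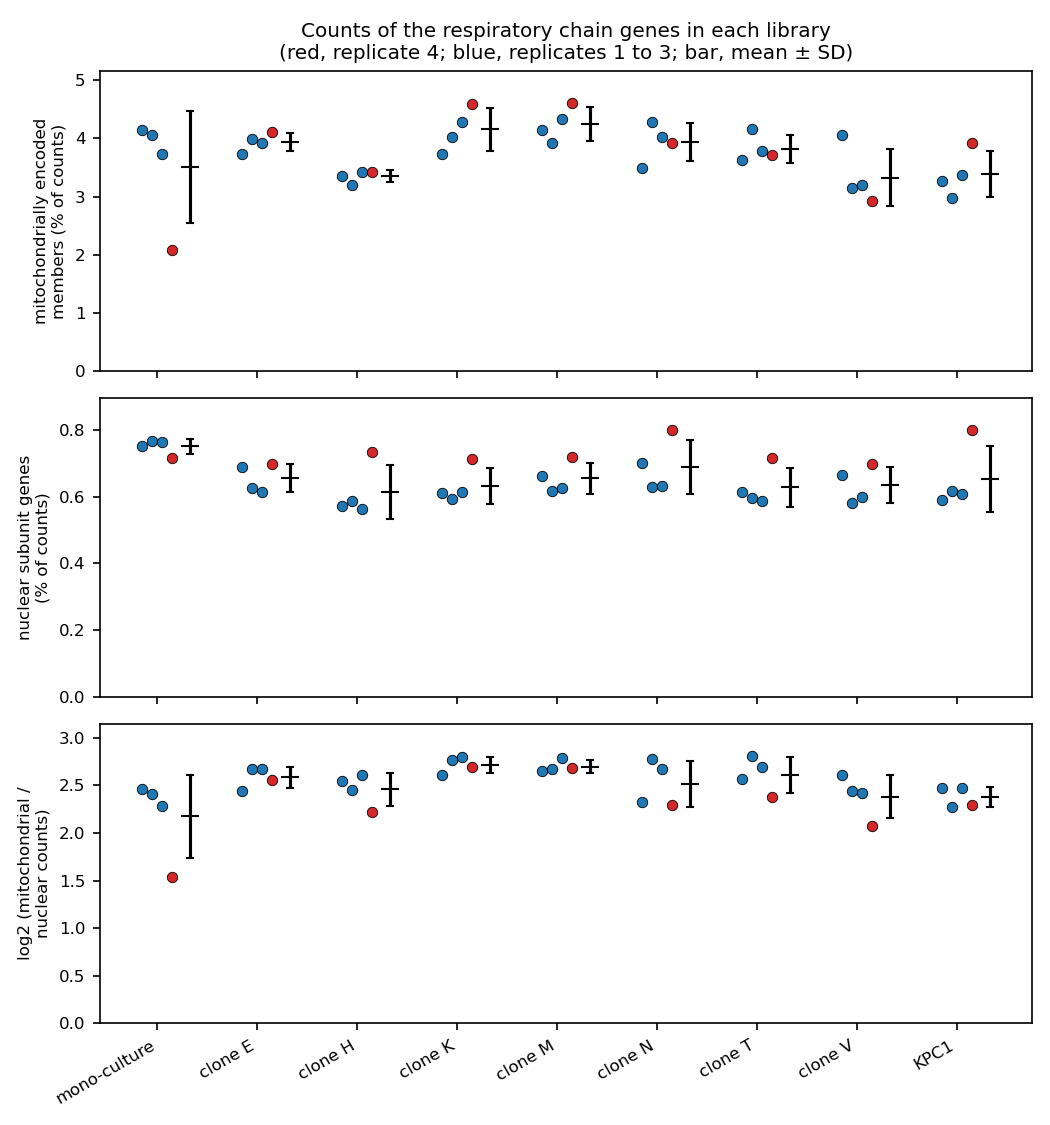
Mitochondrially encoded counts and nuclear subunit counts as percent of the library total, and the log2 ratio of the former to the latter, on the y axes of 3 panels, for the 36 libraries by culture on the x axis; red points are replicate 4, blue points replicates 1 to 3, and bars give the mean and SD of 4 libraries. Mono-culture replicate 4 is the lowest point for the mitochondrial share (2.08%) and the ratio (1.53).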

How the data were processed

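The deposited tables hold the authors' integer counts for each gene and RPKM values (counts divided by exon length and library total), and the submitters' processing notes name STAR, featureCounts, edgeR and mm10. Versions, annotation and strand setting are not given in the sources used here. Libraries were made from 200 ng of RNA by poly(A) selection with 14 amplification cycles and read as 76-base pairs.

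The members and lists were chosen with earlier results of these data known. Counts were tested with edgeR 4.0.16 (R 4.3.3): filterByExpr, TMM, and a quasi-likelihood fit of group means over 36 libraries, with Benjamini-Hochberg adjustment over 14439 genes and a threshold of 0.05. Standard errors are the fold change over the root of its F value. The fits were checked on simulated counts. Named were all mitochondrially encoded and Sdh genes, isoform sets, extremes of each complex and comparison, and the 5 smallest p-values among clones. Other members named were chosen after their values were seen, and results for 2 genes are not reported here. Coordinates are GENCODE vM21 (mm10).

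Alternatives were DESeq2 1.42.0, other scalings and filters, limma 3.58.1 on log2(RPKM + 1) and log2(RPKM + 0.1), a threshold of 0.1, only the 8 libraries compared, a replicate block and leaving out each library. After seeing the data, a fit without the 9 libraries numbered 4 was added.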

Additional observations from a re-analysis of the deposited data

Results flagged for a closer look

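Within groups of 4 libraries, the highest or lowest value was screened for a large gap to the others in 369 sets of gene and group and in 27 sets of library sums. Chance flags about 1 in 20 groups, and 25 of the 369 gene sets (6.78%) were flagged. Of all these flags, 15 were in libraries numbered 4, with 6 in KPC1 replicate 4 and 4 in mono-culture replicate 4.

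Nuclear subunits took 0.734% of counts in clone H replicate 4 and 0.800% in KPC1 replicate 4, the highest of their groups. KPC1 replicate 4 was also the highest for Atp5c1 (289.5 CPM), Atp5g3 (112 CPM), Cox4i1 (399.8 CPM), Cox7a2 (78.1 CPM), Ndufa4 (80.6 CPM) and Sdhd (119.99 CPM). Clone N replicate 4 was the highest of its group for Cox4i1 (392 CPM), clone H replicate 4 for Ndufb7 (24.9 CPM), clone T replicate 4 for Sdhd (85.4 CPM) and clone M replicate 4 for Cox6c (107 CPM). Mono-culture replicate 4 was the lowest of its group for Cox4i1 (291 CPM), Cox7a2l (184 CPM) and mt-Co1 (7447 CPM), and the highest for Ndufaf3 (4.57 CPM).

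The other flagged libraries carried fewer members each. Clone V replicate 1 was high for mt-Nd1 (6673 CPM), mt-Nd2 (3609.6 CPM) and mt-Nd6 (175 CPM). Clone E replicate 4 was high for mt-Nd6 (299 CPM), clone E replicate 1 low for mt-Co1 (14362 CPM) and clone K replicate 1 low for mt-Nd4 (2432 CPM). For mt-Co3 clone E replicate 2 stood at 3.84 CPM and clone M replicate 1 at 4.47 CPM, also the highest of their groups. Cox6a2 stood at 5.005 CPM in KPC1 replicate 2, Cox6c at 88.5 CPM in clone K replicate 2 and Ndufaf1 at 16.01 CPM in clone M replicate 1, each the highest of its group.

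The effect of co-culture differed between clones for 46 of 99 members (46.5%) by the edgeR F-test among the 7 clonal co-cultures (adjusted p under 0.05). This was a smaller share than the 67.5% of all genes called by the same test.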

How the results depend on the processing

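Of the genes named by rule, none that was called changed sign under the alternatives run, but the balance of calls did. Members named after their values were seen, such as Ndufa1, Ndufa5 and Cox5a, and the genes of the fixed lists were not checked in this way. For KPC1 against the clones it went from 14 higher and 11 lower to 6 and 12 with library totals only, 5 and 14 with limma, 15 and 17 with the replicate block, 5 and 25 without KPC1 replicate 4 and 10 and 26 without the 9 libraries numbered 4. For the mitochondrially encoded genes in the mean of the clones it went from 2 higher and 0 lower to 0 and 1 without mono-culture replicate 4, and with KPC1 from 2 and 1 to 0 and 4. DESeq2 kept 405 of 410 named results on their side of the threshold, and 384 held with library totals as the only scaling, 400 without a filter and 383 with limma on RPKM values. Counts of called members stayed within 1.5 times in the other comparisons but moved for the clones with few calls. A threshold of 0.1 gave 23 with clone E, 16 with K and 22 with M, against 14, 7 and 11. DESeq2 gave 12 with K, as did limma on log2(RPKM + 1) and on log2(RPKM + 0.1), and fits of only the 8 libraries compared gave 26, 25 and 32 with E, K and M. The replicate block gave 24 with E, 22 with K and 21 with M, and it retained all calls of the fit without it. Shares of all genes called were not set beside these counts, nor beside those of the fits without libraries below. The counts therefore do not show whether the members changed more than other genes did. Co-culture libraries with the same number had a median correlation of 0.309 (range -0.250 to 0.690, 112 pairs), those with mono-culture -0.063, and 30 of 36 libraries correlated best with their own number. The sample titles number the co-culture libraries replicate by replicate, with mono-culture after them all. What libraries of the same replicate number share is not given in the sources used here.

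Without the 9 libraries numbered 4, a fit chosen after seeing the data, counts were 25 with E, 28 with K, 33 with M and 32 with N. Nuclear medians became -0.26 with K, -0.30 with M and -0.35 with T. Mitochondrial medians became -0.044 with E, -0.24 with H, 0.072 with K, 0.011 with M, -0.021 with N, -0.0032 with T and -0.40 with KPC1, and with library totals only the median with T was 0.049. The ratio difference without mt-Co1 was 0.088 with H, 0.45 with M and -0.12 with KPC1, and from mean log2 CPM it was 0.46 with K. The cause of these shifts was not tested.

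Leaving out each library, counts ranged from 9 (without clone E replicate 3) to 18 with E, 36 to 56 with H, 4 (without mono-culture replicate 2) to 11 (without KPC1 replicate 4) with K, and 8 to 18 (without KPC1 replicate 4) with M. They were 15 to 24 with N, 33 to 42 with T, 37 to 50 with V, 36 to 51 with KPC1, 29 to 46 in the mean of the clones, 43 to 53 among clones, and 11 to 30 for KPC1 against the clones, with 11 and 15 without KPC1 replicates 1 and 2. Nuclear medians kept their sign throughout. Mitochondrial medians ranged from -0.042 to 0.29 with E, -0.21 to 0.10 with H, 0.12 to 0.37 with K, 0.050 to 0.35 with M, -0.014 to 0.28 with N, -0.052 to 0.31 with T and -0.36 to -0.027 with KPC1, each lowest without mono-culture replicate 4. Ratio differences ranged from 0.20 to 0.51 with E, 0.071 to 0.38 with H, 0.33 to 0.64 with K, 0.31 to 0.62 with M, 0.22 to 0.53 with T and -0.0076 to 0.30 with KPC1, again lowest without that library.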
